A study of Mus musculus with 72 samples.

Results

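The comparison set the livers of mice under incompletely adapted arrhythmic feeding (18 libraries) against those of mice under night-restricted feeding (18 libraries), 36 of the 72 libraries of the study. The libraries were chosen by their labels and not by any measured value. All were from wild-type male C57BL/6J mice, 43 to 49 days old at the start, kept in 12 h of light and 12 h of dark with water always available. The study's other groups were plain arrhythmic and ad libitum feeding (18 libraries each), used here where named. The labels call the first group arrhythmic feeding in animals that did not adapt fully, and the second night-restricted feeding. The sources used here do not say how food was timed, how adaptation was judged or how long the paradigms ran. Each group held 3 libraries at each of 6 zeitgeber times (ZT, hours after lights on), from ZT2 to ZT22 in steps of 4 h. The labels do not say that the replicates were separate animals, so the p-values measure only the spread between these samples. The measurement was a count of reads at the 3′ ends of liver mRNA, scaled to a common library size (CPM), and the series title names its question, whether rhythmic food intake or the liver's clock drives rhythmic expression more strongly.

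As background, the liver clock is a loop in which BMAL1 (Arntl) and CLOCK switch on the Per, Cry and Nr1d genes, whose proteins then switch the loop off again about once a day. Food intake acts beside it. Feeding raises insulin and with it the transcription factor SREBP1, which drives fatty acid synthesis. It also loads the endoplasmic reticulum (ER) with secretory protein. The related factor SREBP2 drives cholesterol synthesis and is held back when sterols are plentiful. Fasting raises genes for releasing and burning fat.

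Total counts ran from 6017962 to 7972905 per library in the incompletely adapted group and from 4342026 to 12286021 in the night-restricted group, and mitochondrial transcripts took 4.61% ± 0.818 and 4.27% ± 1.203 of the counts (SD, n = 18 each). A few libraries stood apart by base composition. The GC slope of a library, the trend of its log2 deviations on the GC content of the transcripts' 3′ ends, averaged -0.06802 ± 0.191 per 0.1 of GC in the incompletely adapted group and 0.0762 ± 0.206 in the night-restricted group. Of the 5 libraries of most extreme slope, 4 were night-restricted replicate 1 (ZT22, ZT18, ZT6 and ZT2), and the other was incompletely adapted replicate 1 at ZT10. Counts are therefore also given with that slope entered as a covariate, and again with these 5 libraries left out. The tissue label held: summed over the 10 periportal hepatocyte markers, the level ran from 9954 to 22841 CPM in the incompletely adapted group and from 7604 to 31366 CPM in the night-restricted group. The 8 neutrophil markers summed to at most 15.1 and 8.36 CPM in the groups in that order, and the 12 Kupffer cell and macrophage markers to between 434 and 1881 and between 793 and 2519 CPM. Some markers passed the test of mean level over the day with all libraries. Of 12 endothelial markers, Cdh5 was higher and Stab1, Eng and Vcam1 were lower in incompletely adapted livers. Of 4 adipocyte markers tested, Cfd (1.58 ± 0.39 on the log2 scale, SE) and Cidec (0.96 ± 0.31) were higher, also with the GC covariate, and the 1 acinar marker tested, Cela1, was lower (-0.69 ± 0.16). Lower too were Hal and Ass1 of 10 periportal, Cyp1a2 of 10 pericentral, Acta2 and Lum of 12 stellate cell and Hba-a2 of 5 erythroid markers tested, while pericentral Cyp27a1 and Ighm of 5 B cell markers were higher. None of the 12 Kupffer cell, 2 neutrophil and 2 T and NK cell markers tested passed. Without the 5 libraries, Hal was the 1 marker of these lists that passed. The part of other cell types in the results was not tested. In bulk tissue, fewer cells of a type and less RNA per cell cannot be told apart.

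The daily rhythm was weaker in incompletely adapted livers. Of 12712 genes tested, 462 (3.63%) were called rhythmic with a period of 24 h under incompletely adapted arrhythmic feeding and 3802 (29.9%) under night-restricted feeding. Being called in 1 group alone does not show a difference, so the difference of the rhythm itself was tested, by an F test on the cosine and sine coefficients that responds to a change of range, of timing or of both. It was called for 78 genes (0.614%) at a false discovery rate of 0.05, and 1857 genes passed an unadjusted p of 0.05. The range of a gene, its fitted difference between peak and trough on the log2 scale, was smaller in incompletely adapted livers for 72 of them (0.566% of genes tested) and larger for 6 (0.0472%). The median range of the 78 genes was 0.64 in incompletely adapted and 1.59 in night-restricted livers. 63 of them were called rhythmic in night-restricted livers alone, 13 in both groups and 2 in incompletely adapted livers alone. Over all genes tested the median range was 0.42 and 0.70, with 9687 genes (76.2%) below a ratio of 1 and a median ratio of 0.61. The counts of every gene list below are to be read beside these values and the shares of all genes called. Because the fit always finds some range, a gene without any rhythm also shows one above 0.

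How many genes were called moved with the libraries used. It was 222 with the slope entered as a covariate and 237 without the 5 libraries, and these fits called 75 and 73 of the 78 genes again. Without replicate number 1, 2 or 3 it was 38, 1 and 3. Leaving out 1 library moved it by over 1.5 times for 13 libraries. Among incompletely adapted libraries these were replicate 1 at ZT14 (122) and ZT18 (50), replicate 2 at ZT22 (126), and replicate 3 at ZT06 (123) and ZT10 (49). Among night-restricted libraries they were replicate 1 at ZT22 (184), ZT18 (261), ZT06 (48) and ZT02 (48), replicate 2 at ZT10 (46), ZT14 (51) and ZT18 (37), and replicate 3 at ZT02 (118). With time as a factor of 6 levels, which spends more degrees of freedom, it was 7. The smaller range in incompletely adapted livers held in genes chosen without either group: in the 951 genes called rhythmic under ad libitum feeding, 810 had a smaller range in incompletely adapted than in night-restricted livers, with a median ratio of 0.622 (quartiles 0.405 and 0.861).

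**Figure D1:**
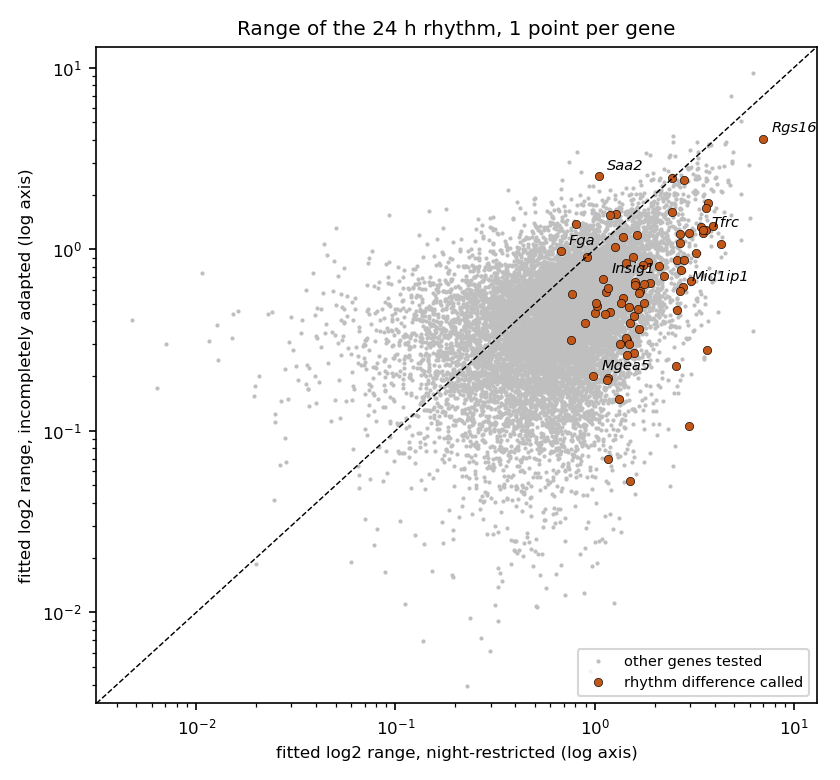
Fitted log2 range of each of 12712 genes in incompletely adapted livers (vertical, log axis) against night-restricted livers (horizontal, log axis); the dashed line marks equal ranges and the large points are the 78 genes whose rhythm difference was called. Most of these lie below the line, with Saa2 and Fga above it.

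Cholesterol synthesis and its control held the gene of smallest p and several further calls. Insig1 (chromosome 5, 28071363 to 28078662 of GRCm38, plus strand) encodes an ER protein that holds back SREBP processing when sterols are plentiful and is itself an SREBP target. At ZT6 it had 135, 81.7 and 90.01 CPM in incompletely adapted livers, against 44.5, 66.2 and 61.2 CPM in night-restricted livers. At ZT10 it had 90.4, 90.99 and 99.7 CPM in incompletely adapted livers, against 52.3, 41.8 and 61.4 CPM in night-restricted livers, and at ZT18 62.5, 71.5 and 52.7 CPM in incompletely adapted livers, against 76.3, 132 and 117 CPM in night-restricted livers. The incompletely adapted libraries lay above all night-restricted ones at ZT6 and ZT10 and below all of them at ZT18. Here and below, such lack of overlap is a description of genes picked by p from the same values. It is no separate support, and its share over all genes tested was not counted. Its fitted log2 range was 0.68 ± 0.16 (SE) with a peak at ZT 8.32 ± 0.918 in incompletely adapted livers and 1.10 ± 0.16 with a peak at ZT 20.7 ± 0.571 in night-restricted livers, close to opposite phase (adjusted p = 1.64e-05, the smallest of all genes in the edgeR test; called in both groups).

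Enzymes further down the pathway were called as well. Lss, lanosterol synthase, had 12.8, 16.02 and 14.5 CPM in incompletely adapted livers, against 3.78, 8.597 and 9.09 CPM in night-restricted livers at ZT6, and 16.8, 15.5 and 10.02 CPM in incompletely adapted livers, against 15.9, 32.3 and 28.7 CPM in night-restricted livers at ZT18. All incompletely adapted libraries were above all night-restricted ones at ZT6. Its log2 range was 0.81 ± 0.24 in incompletely adapted and 1.76 ± 0.25 in night-restricted livers, with peaks at ZT 12.4 ± 1.13 and ZT 19.7 ± 0.529 (adjusted p = 0.000819). Fdps, farnesyl diphosphate synthase, had 47.8, 53.1 and 60.1 CPM in incompletely adapted livers, against 122, 78.7 and 113 CPM in night-restricted livers at ZT2, where the groups did not overlap. Its range was 0.63 ± 0.29 against 1.59 ± 0.29 (adjusted p = 0.0205). For Dhcr7, the last reductase of the pathway, the range was 0.30 ± 0.23 against 1.33 ± 0.23 (adjusted p = 0.0226). The night-restricted Dhcr7 trough at ZT14 (16.6, 11.4 and 19.2 CPM) lay below 28.1, 25.4 and 21.1 CPM in incompletely adapted livers at that time. Across the list, 5 of 26 cholesterol synthesis genes (19.2%) were called, beside 0.614% of all genes tested (11 with the covariate, 7 without the 5 libraries). The fitted range was smaller in incompletely adapted livers for 80.8% of the list, beside 76.2% of all genes tested. 3 were rhythmic in incompletely adapted and 15 in night-restricted livers, and the median range ratio was 0.46, beside 0.61 over all genes tested.

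**Figure D2:**
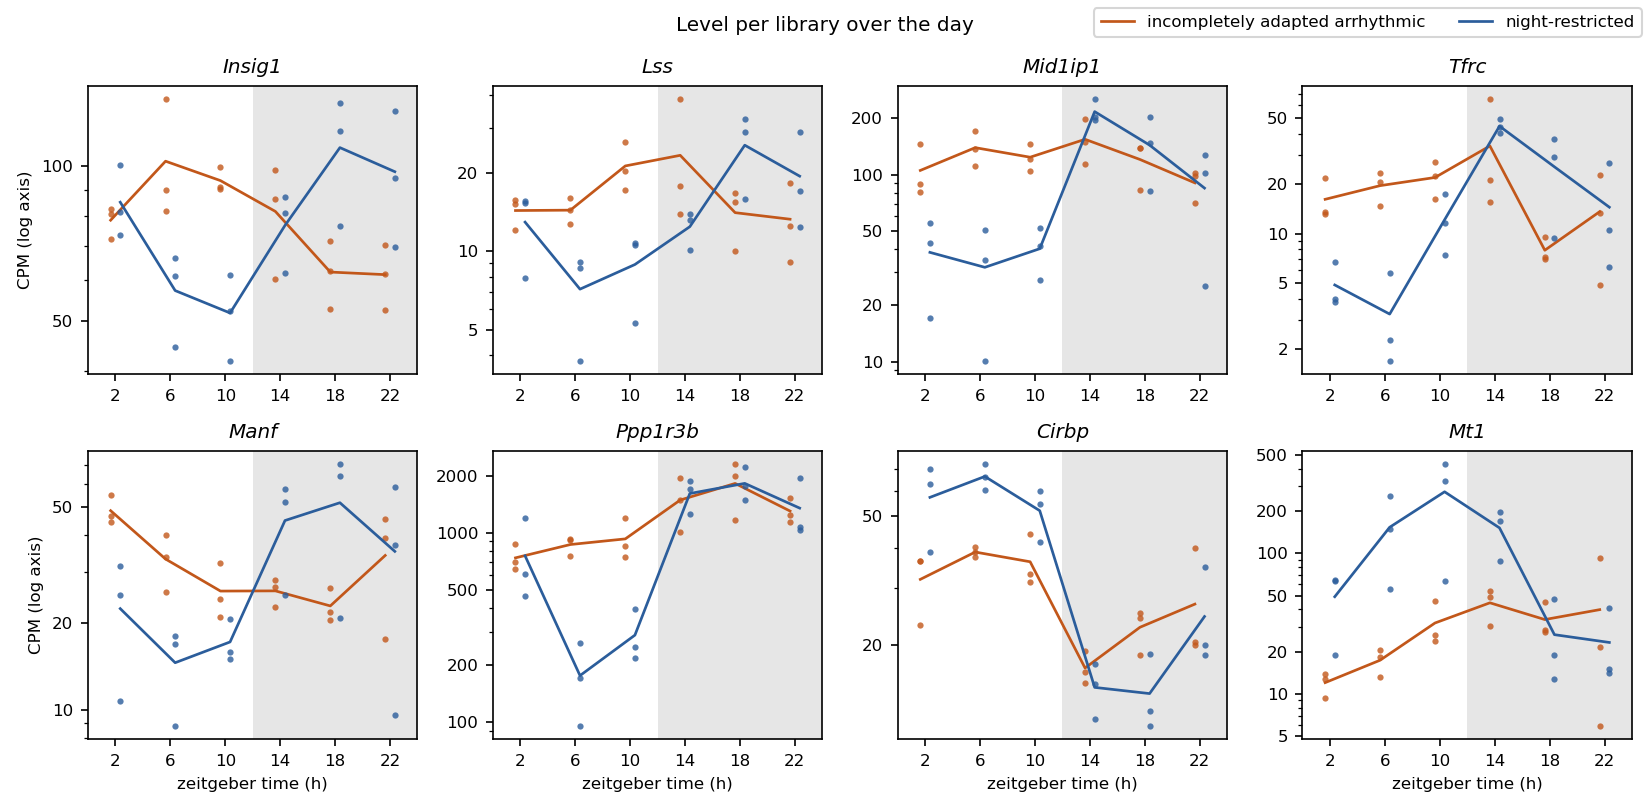
CPM (log axis) of 8 genes by zeitgeber time; points are libraries, lines join the means of 3 libraries, incompletely adapted in orange and night-restricted in blue, and the grey field is the dark phase. The night-restricted curves swing further in each panel, and Insig1, Lss and Manf are high at times when the other group is low.

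Among lipogenic genes, Mid1ip1, Srebf1 and Acly were called. Mid1ip1 encodes a protein that activates acetyl-CoA carboxylase, the committed step of fatty acid synthesis. At ZT6 its values were 171, 137 and 111 CPM in incompletely adapted livers, against 10.1, 50.8 and 35.1 CPM in night-restricted livers, and at ZT14 199, 115 and 149.6 CPM in incompletely adapted livers, against 202, 253 and 196 CPM in night-restricted livers. The groups did not overlap at ZT6, where incompletely adapted livers were higher, and overlapped at ZT14. The log2 range was 0.62 ± 0.30 against 2.79 ± 0.30 (adjusted p = 0.000819). Srebf1, which encodes SREBP1, peaked at ZT 8.14 ± 1.39 in incompletely adapted and ZT 17.2 ± 0.926 in night-restricted livers, with ranges of 1.60 ± 0.58 and 2.44 ± 0.60 (adjusted p = 0.0497). At ZT6 Srebf1 had 73.5, 63.2 and 27.5 CPM in incompletely adapted livers, against 2.31, 21.2 and 11.8 CPM in night-restricted livers, again without overlap. Acly, ATP-citrate lyase, which supplies the acetyl-CoA, had 204, 382 and 382 CPM in incompletely adapted livers, against 91.9, 65.7 and 145 CPM in night-restricted livers at ZT10, also without overlap, and its range was 0.65 ± 0.31 against 1.90 ± 0.32 (adjusted p = 0.0122). Its mean was highest at ZT10 in incompletely adapted (323 CPM) and at ZT22 in night-restricted livers (326 CPM), so the timing differed as well. Of 20 lipogenesis genes, 3 were called, all with a smaller range in incompletely adapted livers (7 with the covariate, 5 without the 5 libraries), and 2 were rhythmic there, against 14 in night-restricted livers. The fitted range was smaller in incompletely adapted livers for 16 of the 20 (80%), with a median ratio of 0.65, beside 76.2% and 0.61 over all genes tested. By range alone the list was thus close to the background. The share called was 15%, beside 0.614% of all genes tested, of which 3.63% were rhythmic in incompletely adapted and 29.9% in night-restricted livers.

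Single genes of glycogen, fat use and iron uptake were also called. Ppp1r3b targets protein phosphatase 1 to glycogen and so favours glycogen storage. It had 929, 755 and 913 CPM in incompletely adapted livers, against 171, 95.1 and 260.2 CPM in night-restricted livers at ZT6, and 1988, 2307 and 1164 CPM in incompletely adapted livers, against 1755, 1489.8 and 2219 CPM in night-restricted livers at ZT18. At ZT6 all incompletely adapted libraries were above all night-restricted ones, and at ZT18 the groups overlapped. Its range was 1.32 ± 0.30 against 3.40 ± 0.30 (adjusted p = 0.0122). It was the 1 gene called of 22 in the glycolysis, glycogen and fructose list. Cpt1a, which admits long-chain fatty acids into mitochondria, had 190.4, 180.4 and 159 CPM in incompletely adapted livers, against 291, 281 and 239.7 CPM in night-restricted livers at ZT10. It was the 1 called of 23 fatty acid oxidation and ketogenesis genes, with a range of 0.66 ± 0.15 against 1.59 ± 0.15 (adjusted p = 0.0205). Pnpla2, the adipose triglyceride lipase that starts lipolysis, had 102, 94.7 and 102 CPM in incompletely adapted livers, against 176, 161 and 153 CPM in night-restricted livers at ZT10, and 71.8, 70.05 and 93.3 CPM in incompletely adapted livers, against 56.9, 50.002 and 53.9 CPM in night-restricted livers at ZT18. Incompletely adapted libraries were all lower at ZT10 and all higher at ZT18, so the course was flatter. Its values gave a range of 0.43 ± 0.16 against 1.57 ± 0.17 (adjusted p = 0.00805). Tfrc, the transferrin receptor for iron uptake, had 23.4, 20.4 and 14.8 CPM in incompletely adapted livers, against 1.68, 5.78 and 2.27 CPM in night-restricted livers at ZT6, without overlap, and 65.5, 21.02 and 15.6 CPM in incompletely adapted livers, against 44.2, 40.5 and 49.9 CPM in night-restricted livers at ZT14. Its range was 1.23 ± 0.39 against 3.5 ± 0.42, and its peak was at ZT 10.5 ± 1.22 against ZT 16.1 ± 0.442 (adjusted p = 0.00164). Rgs16, a brake on G protein signalling, had 5.09, 9.39 and 3.27 CPM in incompletely adapted livers, against 1.51, 1.23 and 0.626 CPM in night-restricted livers at ZT22, without overlap. It had a range of 4.07 ± 0.66 against 7.01 ± 0.77 and peaked at ZT 10.9 ± 0.607 against ZT 8.52 ± 0.372 (adjusted p = 0.0427). Tfrc and Rgs16 were the 2 genes called of 14 clock-controlled liver outputs, of which 11 were rhythmic in incompletely adapted and 14 in night-restricted livers.

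Genes of the ER, where secreted proteins are folded and shipped, were a further group with calls. The promoters of several carry the ER stress element, the binding site through which the unfolded protein response acts on them. The stretches below, from RefSeq promoter windows of GRCm38.p6, show it for Creld2, whose rhythm difference was called, and for 3 genes of the list whose difference was not called. They are written 5′ to 3′ on the gene's strand, with CCAAT and CCACG, 9 bases apart, in capitals (CGTGG and ATTGG where the element runs the other way).
Creld2, chr15:88819505-88819553 (plus strand): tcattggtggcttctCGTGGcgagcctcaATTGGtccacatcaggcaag
Hspa5, chr2:34772010-34772058 (plus strand): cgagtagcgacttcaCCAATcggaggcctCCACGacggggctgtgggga
Dnajc3, chr14:118937812-118937860 (plus strand): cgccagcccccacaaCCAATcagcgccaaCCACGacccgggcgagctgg
Pdia6, chr12:17266476-17266524 (plus strand): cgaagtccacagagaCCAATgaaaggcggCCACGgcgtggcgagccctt

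The whole element, searched on both strands, was in the window of 7 of 18 list genes with a window (250 bases before to 50 after the start) and of 0.137% of all 27025 genes with one. Creld2, an ER chaperone-like protein, had 5.08, 8.38 and 7.89 CPM in incompletely adapted livers, against 10.7, 13.96 and 21.5 CPM in night-restricted livers at ZT18, and a range of 0.81 ± 0.31 against 2.10 ± 0.32 (adjusted p = 0.0122). Its mean was highest at ZT2 in incompletely adapted (9.38 CPM) and at ZT18 in night-restricted livers (15.4 CPM), so the timing differed as well. Hspa5, the main ER chaperone BiP, had a range of 0.53 against 0.70 (adjusted p = 0.251). The adjusted p was 0.389 for Dnajc3 and 0.193 for Pdia6, and of the 7 genes with the element Creld2 was the 1 called. Manf and Hyou1, also called, had no promoter window in the source used, so they were not searched for the element.

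Manf, a secreted ER stress protein, had 55.01, 44.3 and 46.7 CPM in incompletely adapted livers, against 10.8, 24.9 and 31.5 CPM in night-restricted livers at ZT2, and 26.3, 20.4 and 21.9 CPM in incompletely adapted livers, against 20.8, 64.2 and 70.5 CPM in night-restricted livers at ZT18. At ZT2 all incompletely adapted libraries were above all night-restricted ones. At ZT18 night-restricted replicate 1 lay within the incompletely adapted values and the other two were above them. The range was 0.85 ± 0.30 against 1.85 ± 0.31 (adjusted p = 0.00433). Hyou1, an ER chaperone of the HSP70 family, had 69.4, 61.98 and 73.7 CPM in incompletely adapted livers, against 6.91, 21.6 and 30.6 CPM in night-restricted livers at ZT2, without overlap, and peaked at ZT 4.68 ± 1.18 against ZT 17.5 ± 1.01 (adjusted p = 0.0151). Dnajb9, a co-chaperone of BiP, had a range of 0.59 ± 0.32 against 1.70 ± 0.32 (adjusted p = 0.0252). In all, 4 of 20 ER chaperone and unfolded protein response genes (20%) were called, beside 0.614% of all genes tested (5 with the covariate, 5 without the 5 libraries). Their median range ratio was 0.45, beside 0.61 over all genes tested. Of the 20, 2 were rhythmic in incompletely adapted and 13 in night-restricted livers, beside 3.63% and 29.9% of all genes tested. Among 29 genes of ER translocation and COP vesicles, 2 (6.9%) were called. Slc35b1, which carries ATP into the ER, had a range of 0.44 ± 0.17 against 1.01 ± 0.17 (adjusted p = 0.006202), and Sec23b, a coat protein of vesicles leaving the ER, 0.57 ± 0.18 against 0.77 ± 0.18 (adjusted p = 0.0136). The ranges of Sec23b were close, and the test responds to timing too, so its call does not by itself show a smaller range. 0 of the 29 were rhythmic in incompletely adapted and 12 in night-restricted livers. By position, Manf lies over Rbm15b on the same strand, which averaged 8.52 and 5.89 CPM in the groups in that order, so part of its count may be that gene's.

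Genes known to respond to stress hormones, amino acid supply and temperature were also among those called. Mt1 and Mt2 encode metallothioneins, which bind zinc and are induced by glucocorticoids. Mt1 had 13.2, 20.7 and 18.2 CPM in incompletely adapted livers, against 149.9, 253 and 56.2 CPM in night-restricted livers at ZT6, and 23.6, 45.98 and 26.3 CPM in incompletely adapted livers, against 326, 432 and 63.7 CPM in night-restricted livers at ZT10. Incompletely adapted libraries lay below all night-restricted ones at both times, and night-restricted replicate 3 was the lowest of its group at both. The range was 1.68 ± 0.59 against 3.63 ± 0.58 (adjusted p = 0.0122), and for Mt2 1.79 ± 0.68 against 3.70 ± 0.67 (adjusted p = 0.0102). These were the 2 called of 13 glucocorticoid-responsive genes (15.4%, beside 0.614% of all genes tested). Trib3, a pseudokinase induced by the transcription factor ATF4, had 15.04, 13.1 and 22.1 CPM in incompletely adapted livers, against 87.7, 68.8 and 46.4 CPM in night-restricted livers at ZT6, without overlap, with a range of 1.27 ± 0.37 against 3.62 ± 0.36 (adjusted p = 0.0205). It was the 1 called of 11 integrated stress response genes. Cirbp, an RNA-binding protein induced by mild cold, had 37.3, 38.8 and 40.2 CPM in incompletely adapted livers, against 66.5, 72.8 and 60.4 CPM in night-restricted livers at ZT6 and 24.2, 18.6 and 25.1 CPM in incompletely adapted livers, against 18.7, 11.2 and 12.4 CPM in night-restricted livers at ZT18. The groups did not overlap at ZT6. Its range was 0.87 ± 0.25 against 2.59 ± 0.25 with like peaks at ZT 4.83 ± 1.1002 and ZT 5.09 ± 0.371 (adjusted p = 0.0205), and Rbm3, the other gene of that list, had an adjusted p of 0.453. Outside the lists, Mgea5, the enzyme that removes O-GlcNAc from proteins, had 41.3, 34.5 and 39.7 CPM in incompletely adapted livers, against 52.7, 48.5 and 47.4 CPM in night-restricted livers at ZT6, and 48.8, 42.6 and 37.1 CPM in incompletely adapted livers, against 28.5, 25.001 and 27.2 CPM in night-restricted livers at ZT18. Incompletely adapted libraries were all lower at ZT6 and all higher at ZT18. Mgea5 had a range of 0.20 ± 0.13 against 0.98 ± 0.13 (adjusted p = 0.000968) and Crybg1 of 0.58 ± 0.21 against 1.14 ± 0.21 (adjusted p = 0.004297). Among tubulin and actin genes, 1 of 12, Actg1, was called, at 2.78 and 3.94 CPM on average (adjusted p = 0.0244).

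A few genes peaked at other times or had a larger range in incompletely adapted livers. Fga, the fibrinogen alpha chain, peaked at ZT 23.1 ± 0.603 against ZT 3.55 ± 0.871, with ranges of 0.98 ± 0.15 and 0.68 ± 0.15 (adjusted p = 0.0475). At ZT10 it had 1133, 1437 and 1599.9 CPM in incompletely adapted livers, against 2047, 2069 and 2502 CPM in night-restricted livers, without overlap. Saa2, serum amyloid A2, had a larger range of 2.53 ± 0.53 against 1.05 ± 0.53 (adjusted p = 0.0213). At ZT18 its values were 441, 40.4 and 73.9 CPM in incompletely adapted livers, against 28.8, 17.95 and 26.8 CPM in night-restricted livers. Without replicate number 1 its adjusted p was 0.255. In that fit the range difference, incompletely adapted minus night-restricted, changed sign to -0.159 for Saa2 and -0.111 for Fga. A larger range of these genes was thus not seen without replicate number 1. Saa1 and Saa2 are near-identical copies, so reads may be split between them. Saa2 and Fga were the 2 called of 19 acute phase genes, the list with a median range ratio of 1.09. Bok, a member of the BCL2 family, peaked at ZT 21.8 ± 0.782 against ZT 2.596 ± 0.576 (adjusted p = 0.0125). At ZT6 Bok had 9.36, 10.9 and 9.74 CPM in incompletely adapted livers, against 23.1, 15.3 and 21.9 CPM in night-restricted livers, without overlap. Dcun1d4, which helps attach NEDD8 to cullins, peaked at ZT 6.25 ± 0.646 against ZT 10.6 ± 0.646 (adjusted p = 0.0312). At ZT2 Dcun1d4 had 22.8, 17.6 and 18.7 CPM in incompletely adapted livers, against 9.49, 12.3 and 9.599 CPM in night-restricted livers. Tnfaip8l1, of the TNFAIP8 family, had 33.6, 33.6 and 38.4 CPM in incompletely adapted livers, against 65.9, 62.2 and 59.3 CPM in night-restricted livers at ZT10. It peaked at ZT 23.2 ± 0.951 against ZT 4.82 ± 0.767 (adjusted p = 0.0497). Bok, Fga and Tnfaip8l1 thus peaked late in the night in incompletely adapted livers and early in the day in night-restricted livers.

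The calls of these genes were not equally firm. All 30 stood with the GC covariate, without the 5 libraries, with a replicate block and in DESeq2, 13 stood without replicate number 1, 1 (Insig1) without replicate number 2, 3 (Insig1, Acly and Crybg1) without replicate number 3, 11 with the libraries of the 2 groups alone in the fit, and 7 with time as a factor. Of 30 genes named above with a called rhythm difference, 15 kept the call whichever 1 of the 36 libraries was left out: Insig1, Lss, Fdps, Mid1ip1, Acly, Ppp1r3b, Pnpla2, Tfrc, Creld2, Manf, Slc35b1, Sec23b, Mgea5, Crybg1 and Bok. Mt1 and Mt2 lost it without incompletely adapted replicate 1 at ZT22 (adjusted p = 0.0524 and 0.0594), and Hyou1 without night-restricted replicate 3 at ZT18 (0.0539). Trib3 lost it without incompletely adapted replicate 1 at ZT18 or night-restricted replicate 1 at ZT06 (up to 0.0739), and Cirbp without incompletely adapted replicate 3 or night-restricted replicate 2 at ZT18 (up to 0.0726). Saa2 reached 0.2097 without incompletely adapted replicate 1 at ZT18 and also lost it without night-restricted replicate 1 or 3 at ZT06 or replicate 2 at ZT18. Dhcr7 lost it without incompletely adapted replicate 3 at ZT10, night-restricted replicate 2 at ZT10 or night-restricted replicate 2 at ZT14 (up to 0.0562). Cpt1a lost it without any 1 of 4 libraries, incompletely adapted replicate 3 at ZT10 and replicate 1 at ZT22 and night-restricted replicate 2 at ZT10 and ZT18 (up to 0.0594), and Actg1 without any 1 of 4, incompletely adapted replicate 1 at ZT02, ZT06 and ZT18 and night-restricted replicate 2 at ZT18 (up to 0.0664). The number of such libraries was 6 for Dcun1d4, 7 for Dnajb9, 24 for Rgs16, 26 for Fga, 26 for Tnfaip8l1 and 28 for Srebf1, whose adjusted p then reached 0.0681, 0.0651, 0.0953, 0.108, 0.118 and 0.108 in that order.

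Heat shock proteins are chaperones of the cytosol and mitochondria. Of 19 such genes tested, 7 were rhythmic in incompletely adapted and all 19 in night-restricted livers (10 and 17 with the covariate). All 19 had a smaller fitted range in incompletely adapted livers (median ratio 0.52). Of the 19, 0 were called for a rhythm difference (2 with the covariate, 1 without the 5 libraries). Over all genes tested, 3.63% and 29.9% were rhythmic in the groups in that order. A smaller range was found for 76.2% of all genes (median ratio 0.61). Chordc1, a partner of HSP90, had ranges of 0.56 ± 0.27 and 2.01 ± 0.28 with peaks at ZT 15.7 ± 1.86 and ZT 15.6 ± 0.524 (adjusted p = 0.0822). The heat shock element, TTC, GAA and TTC with gaps of 2 bases between them, searched on both strands, was in the promoter window of 4 of 15 list genes with one (Hsph1, Hspd1, Hspe1 and Chordc1) and of 0.662% of all genes. Autophagy genes gave 1 rhythmic of 17 in incompletely adapted against 12 in night-restricted livers, with 0 called (4 with the covariate, 3 without the 5 libraries). All 17 had a smaller fitted range in incompletely adapted livers (median ratio 0.50), and so had all 12 SR splicing factor genes (0.42). A smaller range in every member was thus not particular to the heat shock genes. Ribosome biogenesis genes gave 0 of 23 against 9, with 0 called. No difference was called either in gluconeogenesis and fasting (17 tested), where Igfbp1, a fasting-induced binding protein of insulin-like growth factors, had the smallest p (ranges 0.86 ± 0.57 and 2.50 ± 0.58, adjusted p = 0.0904, and 0.03495 by DESeq2), nor in bile acid synthesis and transport (15), xenobiotic metabolism (17), amino acid catabolism and the urea cycle (25), the respiratory chain (19), the proteasome (25) or immediate early genes (9). The methionine cycle (12), the growth hormone and IGF axis (13), male-biased (14) and female-biased (7) liver genes, aminoacyl-tRNA synthetases (20), SR splicing factors (12) and the cell cycle (15) also had 0 calls. At the 0.614% called over all genes tested, 0 calls in lists of this size is near the background. These counts of 0 thus do not show that the lists had like rhythms in the groups. The edgeR test behind them passed 1857 genes in all (14.6%) at an unadjusted p of 0.05.

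**Figure D3:**
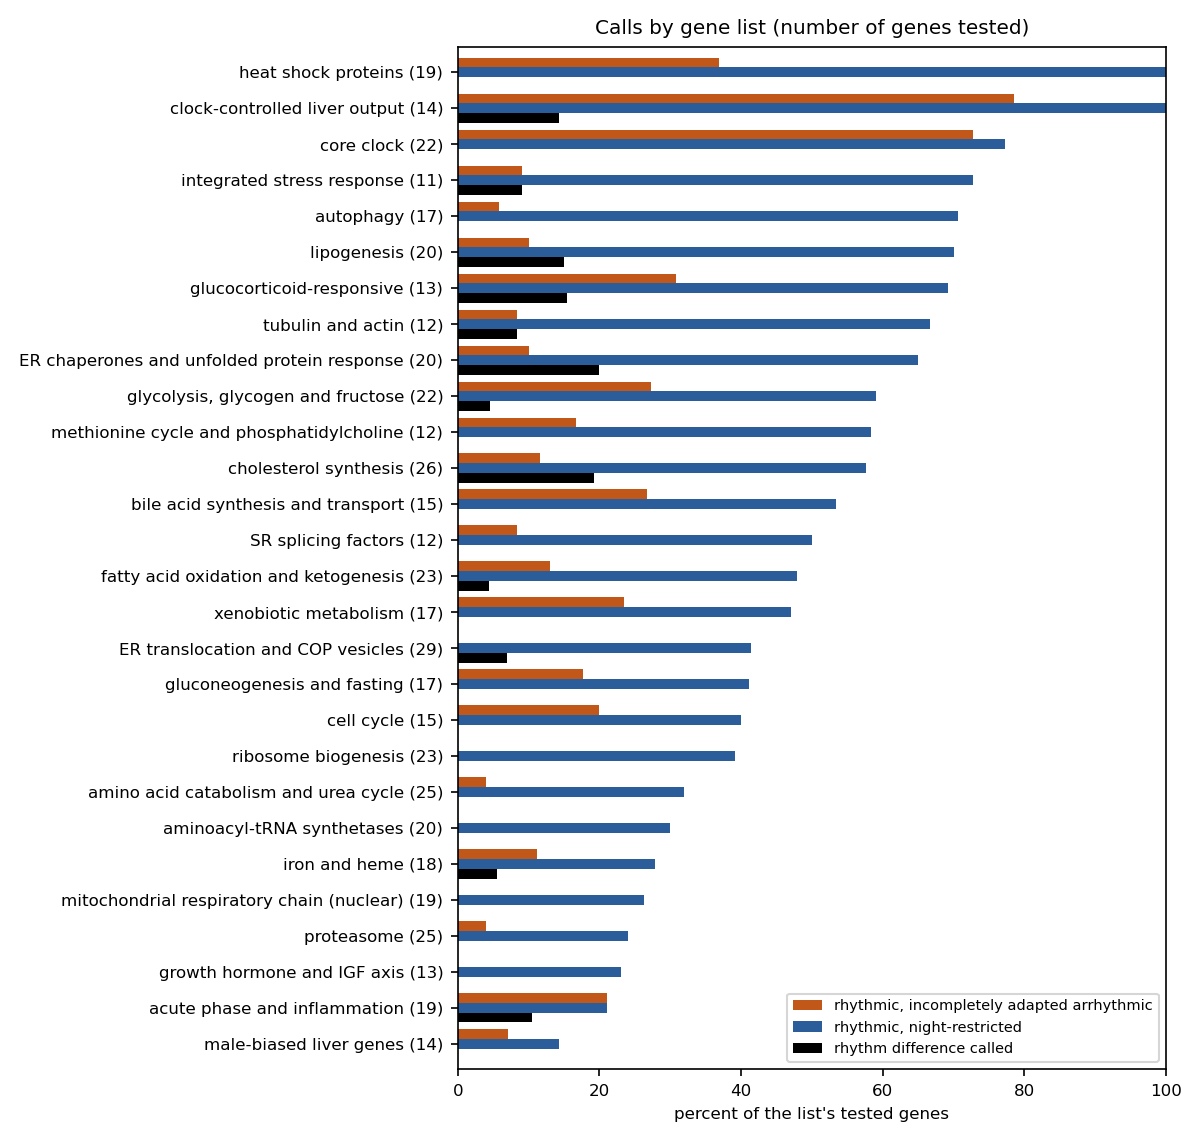
Share of each list's tested genes (number in brackets) called rhythmic in incompletely adapted livers (orange) and in night-restricted livers (blue), and called for a rhythm difference (black). The blue bar is longer than the orange one in all lists shown but acute phase and inflammation, where both are equal, and the core clock has the closest pair of long bars with no black bar.

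Most core clock genes were rhythmic in both groups. Of 22 clock genes tested, 16 were rhythmic in incompletely adapted and 17 in night-restricted livers, and 0 were called for a rhythm difference, with the covariate and without the 5 libraries as well. At the 0.614% called over all genes, 0 of 22 is near the background. 5 (22.7%) passed an unadjusted p of 0.05, beside 14.6% of all genes tested. Other fits called 2 clock genes. Per2 was called by DESeq2 (adjusted p = 0.0458), with a replicate block within each paradigm (0.0229), without night-restricted replicate 1 at ZT22 (0.0482) and without night-restricted replicate 2 at ZT06 (0.01698). Hlf was called with that block (0.0384) and with a replicate block and the GC slope (0.0418). The clock's targets carry the E-box CACGTG, shown here for 3 genes of its repressing arm (RefSeq windows of GRCm38.p6, 5′ to 3′, E-box in capitals).
Per1, chr11:69098768-69098803 (plus strand): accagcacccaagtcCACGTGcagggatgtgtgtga
Cry1, chr10:85185094-85185129 (minus strand): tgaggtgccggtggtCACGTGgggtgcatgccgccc
Ciart, chr3:95882324-95882359 (minus strand): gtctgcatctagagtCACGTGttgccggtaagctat

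The E-box was in the window of 5 of 17 clock genes with one and of 8.09% of all genes. The median range ratio over the 22 clock genes was 0.83, beside 0.61 over all genes tested. In the 16 clock genes rhythmic in both groups, the peak in incompletely adapted livers came earlier in 12. Their median difference was -0.655 h (from -1.76 to 0.938 h). The range was smaller in 12, with a median ratio of 0.8596 (0.483 to 1.502). Of all 387 genes rhythmic in both groups, 247 peaked earlier in incompletely adapted livers, with a median difference of -0.642 h. The median range ratio of these 387 was 0.852. In timing and range the clock genes were thus near the genes rhythmic in both groups as a whole. Per2, a clock repressor, had the smallest adjusted p of the 22 clock genes, 0.0998. Its ranges were 2.82 ± 0.41 and 4.22 ± 0.42, with peaks at ZT 12.4 ± 0.546 and ZT 14.2 ± 0.373. At ZT10 Per2 had 50.1, 31.1 and 28.4 CPM in incompletely adapted livers, against 34.5, 28.03 and 31.4 CPM in night-restricted livers, and at ZT18 25.4, 34.1 and 12.7 CPM in incompletely adapted livers, against 19.6, 45.3 and 46.2 CPM in night-restricted livers. Arntl (BMAL1) peaked at ZT 20.8 ± 0.863 and ZT 21.6 ± 0.589 (adjusted p = 0.484), and Nr1d1, the REV-ERBα gene, at ZT 5.63 ± 0.495 and ZT 5.81 ± 0.4102 (adjusted p = 0.804). Cry1, a repressor, had ranges of 3.20 ± 0.28 and 3.29 ± 0.28 (adjusted p = 0.534). Hlf, a D-box activator, had 0.65 ± 0.14 and 1.35 ± 0.14 (adjusted p = 0.112). Npas2, the partner of BMAL1 related to CLOCK, was low, at 0.532 and 0.817 CPM on average. Ciart lies over an antisense gene and Nr1d1 over Thra on the opposite strand, and the sources used here do not say whether the counting used strand.

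**Figure D4:**
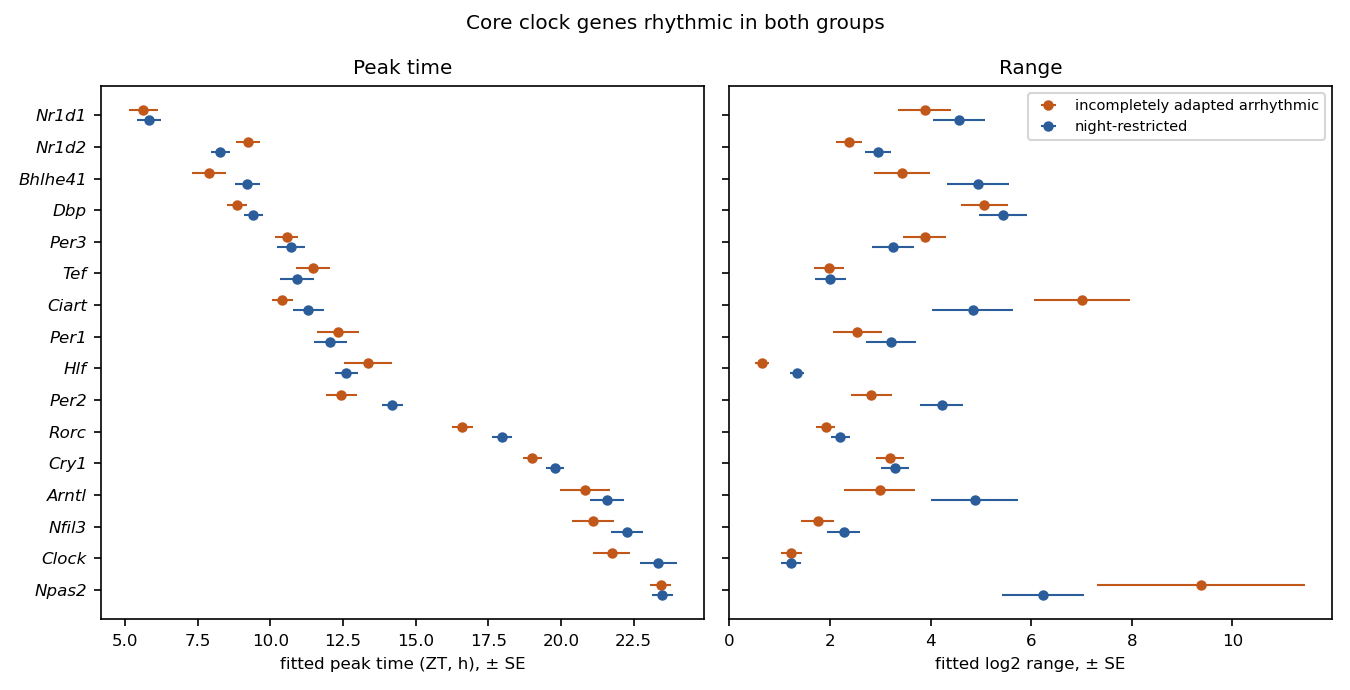
Fitted peak time (left, hours of ZT) and log2 range (right) of the 16 core clock genes rhythmic in both groups, with standard errors, incompletely adapted above night-restricted in each row. Peak times lie within 1.76 h of each other in every row and most error bars of the ranges overlap.

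Among all genes rhythmic in both groups (387, which is 83.8% of those in incompletely adapted and 10.2% of those in night-restricted livers), the peaks lay a median of 1.32 h apart. 22 were more than 4 h apart. 274 had the smaller range in incompletely adapted livers (median ratio 0.852). Peaks fell in the dark phase for 63.4% of genes rhythmic in incompletely adapted and 46.7% of those in night-restricted livers. The largest ranges in incompletely adapted livers, among genes of at least 10 CPM, were those of Dbp (5.07 ± 0.47, a D-box activator), Rgs16, Nr1d1, Per3 (3.88 ± 0.42, a clock repressor), Usp2 (3.75 ± 0.51, a clock-driven deubiquitinase) and Lpin1 (3.54 ± 0.47, a phosphatidate phosphatase of triglyceride synthesis). In night-restricted livers their ranges were 5.44 for Dbp, 3.25 for Per3, 3.82 for Usp2 and 3.0 for Lpin1, and of these 6 genes the rhythm difference was called for Rgs16.

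Mean level over the day differed in many genes with all libraries, and the count moved strongly with the fit and the libraries used. With all libraries, 873 genes (6.87%) were higher and 1419 (11.2%) lower in incompletely adapted livers, with a median size of 0.49 on the log2 scale, and 131 of the 2292 changed by more than 1 log2 unit. The genes that were higher had a median GC content of 38.7% in the last 300 bases of the transcript, and those that were lower 48.3%, beside 43.00000% over all genes tested. With the covariate 604 genes were called, without the 5 libraries 140, without replicate number 1 55, and without replicate number 3 6241. The GC slope differed between the groups, and 4 of the 5 libraries were night-restricted replicate 1. Base composition, replicate number and feeding paradigm therefore cannot be told apart here, and fewer libraries also give fewer calls by themselves. Leaving out 1 library moved the count by over 1.5 times for 4 night-restricted libraries of replicate number 1, those of ZT22 (1389), ZT18 (1436), ZT06 (1423) and ZT02 (1510). Genes called with all libraries, with the covariate and without the 5 libraries numbered 125 (0.983%), 51 higher and 74 lower, of which 36 were also called without replicate number 1. Rises and falls of mean level are stated for genes called in these 3 fits alone, and 3 adjusted p-values stand for the fits in that order. Gm32468, Atpif1, Inpp1, Pla2g12a, Ctsa, Erf, Afm, Gm8129, Snord118 and Mt1 kept the call of mean level in all 50 alternative fits. The fit without replicate number 1 is among these. Each other gene stated below to rise or fall lost the call in 1 of its 50 alternative fits.

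Gm32468, a long non-coding RNA gene (chromosome 10, 93084206 to 93093727, plus strand), had the largest rise of the named genes, of 2.87 ± 0.33 on the log2 scale (SE; adjusted p = 2.31e-08, 1.08e-07 and 1.26e-05). It ran from 12.5 to 66.96 CPM (median 33.2) in incompletely adapted livers and from 0.752 to 18.2 CPM (median 3.22) in night-restricted livers, and at each of the 6 times all incompletely adapted libraries were above all night-restricted ones. Elovl6, a fatty acid elongase, rose by 1.06 ± 0.19 (adjusted p = 0.000194, 0.00199 and 0.0103), from 63.005 to 446 CPM (median 143) in incompletely adapted livers and from 15.1 to 238 CPM (median 62.8) in night-restricted livers. All incompletely adapted libraries were above all night-restricted ones for Elovl6 at ZT6, ZT10 and ZT22. Ulk1, the kinase that starts autophagy, rose by 0.69 ± 0.14 (adjusted p = 0.000658, 0.005102 and 0.0286), and Atpif1, an inhibitor of the ATP synthase, by 0.75 ± 0.13 (adjusted p = 0.000113, 0.000915 and 0.00251). Atpif1 was without overlap at 5 of 6 times. Chordc1 rose by 0.68 ± 0.14 (adjusted p = 0.000815, 0.0128 and 0.0456), and so did Inpp1, an inositol phosphatase, by 0.61 ± 0.13, Upf3a, a nonsense-mediated decay factor, by 0.41 ± 0.09, and Pde4dip by 0.36 ± 0.08. Pop4, a subunit of RNase P, had a difference of 0.44 ± 0.09 but an adjusted p of 0.0695 without the 5 libraries. Gm8355 is a processed pseudogene, whose reads may come from its parent gene (0.80 ± 0.16, adjusted p = 0.000699, 0.00426 and 0.0286). Elovl6 lies over the antisense gene Gm35986, which averaged 39.9 and 28.3 CPM, and Ctsa over Pltp on the opposite strand, at 43.999 and 26.6 CPM, in the groups in that order.

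Among genes that fell, Pla2g12a, a secreted phospholipase A2, had the smallest p. It ran from 15.8 to 52.2 CPM (median 26.7) in incompletely adapted livers and from 27.3 to 70.5 CPM (median 51.8) in night-restricted livers and fell by 0.93 ± 0.10 on the log2 scale (adjusted p = 4.23e-09, 7.51e-09 and 2.74e-06). From ZT10 to ZT22 every incompletely adapted library was below every night-restricted one of the same time. Ctsa, the lysosomal protein cathepsin A, ran from 56.3 to 132 CPM (median 98.97) in incompletely adapted livers and from 96.6 to 246 CPM (median 146) in night-restricted livers (log2 difference -0.75 ± 0.11, adjusted p = 7.57e-06, 2.36e-05 and 0.00251). Ethe1, a mitochondrial enzyme of sulfide breakdown, had a difference of -0.88 ± 0.13, Afm, the plasma protein afamin, of -0.38 ± 0.06, Erf, an ETS-family repressor, of -0.84 ± 0.13, Pcbp4, an RNA-binding protein, of -0.91 ± 0.14, and Fam213b, a prostamide synthase, of -0.91 ± 0.15. These 5 fell in all 3 fits, with adjusted p from 3.75e-06 to 0.0159. So did Epb41l4aos, a long non-coding RNA gene (-0.63 ± 0.09), and the processed pseudogene Gm8129 (-0.94 ± 0.15), whose parent gene may supply its reads. Snord118, a small nucleolar RNA gene, had a difference of -1.47 ± 0.19 (adjusted p = 1.4e-06, 1.59e-05 and 0.000743) and ran from 29.2 to 179.5 CPM (median 114) in incompletely adapted livers and from 99.6 to 1004 CPM (median 312) in night-restricted livers. Small nucleolar RNAs carry no poly(A) tail in general while the libraries were made from poly(A) RNA, and which transcript its reads came from was not tested.

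**Figure D5:**
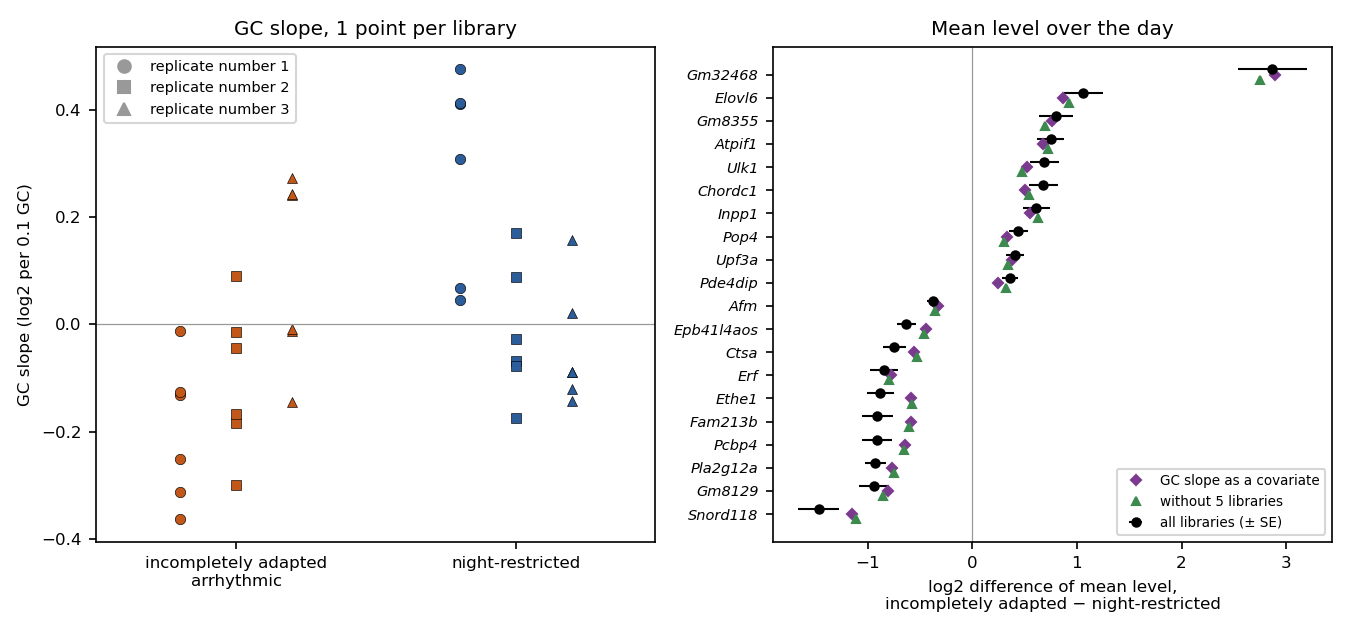
Left, the GC slope of each library (log2 change per 0.1 of GC content) by group, with symbols for the replicate number. Right, the log2 difference of mean level, incompletely adapted minus night-restricted, for the 20 named genes with all libraries (± SE), with that slope entered as a covariate, and with the 5 libraries of most extreme slope left out; all 20 keep their sign, and night-restricted replicate 1 holds the 4 highest slopes of the left panel.

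Of the gene lists, few members passed all 3 fits by mean level. Over all genes tested, 6.87% were higher and 11.2% lower with all libraries, and 0.983% passed all 3 fits. Heat shock protein genes had 5 of 19 higher and 0 lower with all libraries, 3 with the covariate and 2 without the 5 libraries, where Chordc1 and Hsp90aa1 (the inducible HSP90, 0.66 ± 0.16, adjusted p = 0.00521, 0.0279 and 0.04997) were called in each. Lipogenesis genes had 6 of 20 higher and 1 lower, with Elovl6 called in each fit. Srebf2, which encodes SREBP2, the main driver of cholesterol synthesis, fell by 0.39 ± 0.08 (adjusted p = 0.00162, 0.00582 and 0.0434). It was the 1 such gene of its list, in which 1 was higher and 3 were lower with all libraries. Mt1 had 29.9 and 113 CPM on average in incompletely adapted and night-restricted livers and fell by 1.59 ± 0.29 (adjusted p = 0.000341, 0.00582 and 0.0344). Gbe1, the glycogen branching enzyme, rose by 0.33 ± 0.08 (adjusted p = 0.00238, 0.007802 and 0.0384), Leo1, a subunit of the PAF transcription complex, by 0.76 ± 0.16 (adjusted p = 0.001601, 0.040003 and 0.0433), and Hal, the first enzyme of histidine breakdown and a periportal marker, fell by 0.47 ± 0.09 (adjusted p = 0.000505, 0.00183 and 0.0256). The respiratory chain had 6 of 19 lower with all libraries, 2 with the covariate and 0 without the 5 libraries. Of the cell type lists, Hal among 10 periportal markers was the 1 marker called in each fit. Gluconeogenesis and immediate early genes had 0 called members, where Pck1, the key gluconeogenic enzyme, had 727 and 331 CPM on average and an adjusted p of 0.0654; 4617 of all genes passed an unadjusted p of 0.05.

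By its label the nearest group is plain arrhythmic feeding, and the incompletely adapted group was set against it directly. In the edgeR test, 0 genes differed in rhythm and 0 in mean level at a false discovery rate of 0.05, with 310 and 639 at an unadjusted p of 0.05, and DESeq2 called 0 and 0. That does not show that these groups are alike: without replicate number 3, 304 genes were called by mean level. Of the 78 genes called against night-restricted feeding, 3 differed between the arrhythmic groups at an unadjusted p of 0.05, and their median range was 0.64 under incompletely adapted and 0.63 under plain arrhythmic feeding.

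The spread between libraries of one group and time was measured too. For each time the SD of log2 CPM between the 3 libraries was taken per gene and its median over genes noted, which averaged 0.347 over the 6 times in incompletely adapted and 0.434 in night-restricted livers, and was higher in incompletely adapted livers at 1 of 6 times (exact two-sided sign-flip permutation p = 0.0938, where 0.0312 is the smallest possible). Without the 5 libraries the difference, incompletely adapted minus night-restricted, changed sign to 0.0659.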

How the data were processed

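Liver RNA was extracted with TRIzol and its poly(A) RNA made into libraries with a Lexogen QuantSeq 3′ kit, per the labels' protocols. The authors deposited a table of read counts per gene, not normalized, with 72 library columns. Per the submitters' processing notes STAR 2.4.2a was a tool and GRCm38.p5 and mm10 were the builds named. The read counter, filters and use of strand are not given in these sources. A second deposited table holds the same counts scaled to CPM and was not used. Gene symbols and coordinates came from GENCODE M21 on GRCm38 (51719 of 51912 IDs).

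From the counts, edgeR 4.0.16 (TMM scaling, low-count filter over the 24 groups of paradigm and time, robust quasi-likelihood F tests) modelled each paradigm by its mean level and the cosine and sine terms of a 24 h wave, over the 72 libraries together. Rhythm (cosine and sine) and its difference were tested with 2 degrees of freedom, and mean level by the difference of the means. P-values were adjusted by Benjamini-Hochberg over all 12712 genes, with a threshold of 0.05, and the fit was tested on simulated data. Standard errors of ranges and peak times are by the delta method. The GC slope used the last 300 bases of each transcript, and log2 CPM used a prior count of 2. CPM are counts over the library's total, so a low gene rests on few reads and is the least precise. The lowest chi-square per gene between libraries of a group was 13.8, so none was treated as a repeat deposit.

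The genes and lists were chosen with earlier results of these data known. Named genes were the core clock list, the 10 genes of at least 10 CPM and smallest p with a smaller or larger range, up to 8 of largest peak shift, 10 higher and 10 lower in mean level, up to 4 (rhythm) and 3 (mean level) of each list, and the 6 of largest range. Hspa5, Dnajc3 and Pdia6 are outside that rule and were chosen for their promoter element. 1 gene that the rule names is not reported here. Alternatives were other scaling, filters, tools, models, replicate blocks, the GC covariate, and leaving out libraries.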

Additional observations from a re-analysis of the deposited data

Results flagged for a closer look

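Rhythm differed between the groups by its own test, in genes called rhythmic in both and with peaks over 4 h apart, in 5 of the named genes. Insig1 peaked at ZT 8.32 ± 0.918 in incompletely adapted and ZT 20.7 ± 0.571 in night-restricted livers (SE; adjusted p = 1.64e-05 by edgeR). The peaks were for Bok at ZT 21.8 ± 0.782 and ZT 2.596 ± 0.576 (0.0125), for Dcun1d4 at ZT 6.25 ± 0.646 and ZT 10.6 ± 0.646 (0.0312), for Fga at ZT 23.1 ± 0.603 and ZT 3.55 ± 0.871 (0.0475), and for Tnfaip8l1 at ZT 23.2 ± 0.951 and ZT 4.82 ± 0.767 (0.0497). What sets these differences was not tested.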

How the results depend on the processing

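The 4 counts of genes with a rhythm difference, with a mean-level difference, rhythmic under incompletely adapted feeding and rhythmic under night-restricted feeding were 78, 2292, 462 and 3802. In the same order they were 39, 1427, 352 and 3007 with no low-count filter, 226, 2737, 566 and 4220 with DESeq2, 19, 1260, 300 and 2780 with the libraries of these groups alone, 7, 1926, 300 and 1741 with time as a factor, 222, 604, 827 and 4230 with the covariate of GC slope, and 237, 140, 468 and 2997 without the 5 libraries of most extreme GC slope. Numbers 1, 2 and 3 of the replicates taken alone, a choice made after seeing the data, gave 67, 7796, 8 and 4210, then 0, 0, 45 and 509, then 1, 164, 6 and 247. Leaving out a library or a replicate number gave ranges of 1 to 261, 55 to 6241, 142 to 580 and 2213 to 4740.

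With a replicate block the counts were 88, 2211, 463 and 3865, with a replicate block within each paradigm 452, 4055, 724 and 5325, and with a replicate block and the GC slope 273, 644, 888 and 4357. Same-numbered libraries of different groups deviated together with r over 0.1 in 4 of 18 cases (median -0.0789), so the numbers were not taken to pair them. Against plain arrhythmic feeding, mean level was called for 0 genes, for 1 with a replicate block, 8 with the block within each paradigm, 705, 3 and 128 with replicate numbers 1, 2 and 3 alone, and 0 to 304 with libraries left out.

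The median range ratio of genes rhythmic under ad libitum feeding was 0.622, and 0.672 with the GC slope, 0.672 with block and GC slope, and 0.677 with replicate number 2 alone. The difference of spread between libraries, -0.0872, was 0.0659 without the 5 libraries. Leaving out libraries or replicate numbers gave range differences of -0.159 to 2.09 for Saa2 and -0.111 to 0.577 for Fga, and log2 mean differences of -0.734 to 0.0612 for Cbs, -0.702 to 0.0208 for Farsb, -0.775 to 0.0911 for Nr1i2 and -0.993 to 0.0152 for Nr1i3, each with the other sign without replicate number 1. The cause was not tested. Over the named genes, 3988 of 4443 alternative values of the mean difference kept their call. For the rhythm difference, 2517 of 2789 values stayed as they were, called or not called. These values cover 56 genes, of which 30 were called with all libraries. The others, most of them clock genes, count as kept where they stayed uncalled. All 265 values that lost a call belong to the 30 called genes. Reads per library limit what can be said of genes under about 1 CPM.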
